A study of Mus musculus with 12 samples.

Results

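*Csf1r*, which encodes the colony-stimulating factor 1 receptor, and *Csf1* and *Il34*, which encode its ligands, were followed in the cortex and hippocampus of irradiated mice. They are 3 of the 23183 genes listed in each library and were found by their gene symbols. The set was selected on earlier results of these same libraries for the level of *Csf1r* after irradiation, so the differences between IR and Con in the 3 genes are given as a description, with no p-value.

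CSF1R is a receptor tyrosine kinase of the mononuclear phagocyte lineage, and in the brain parenchyma it is carried mainly by microglia, which depend on it for survival and proliferation. CSF1 and IL-34 are unrelated in sequence and bind overlapping parts of the receptor. In the forebrain IL-34 is made chiefly by neurons, including those of the cortex and hippocampus, whereas CSF1 comes largely from glia and is important in white matter and cerebellum.

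Male C57BL/6 mice, bought at 7 weeks of age and acclimatized for 1 week, received a single cranial dose of 10 Gy (IR) or a sham irradiation (Con), with no genetic change in either group. RNA of the cortex and of the hippocampus was sequenced 3 months later, with 3 libraries in each of the 4 groups. The sources used here do not say whether libraries with the same number came from the same mouse, nor that each library is a separate mouse, so the errors below measure the spread between libraries. Values are FPKM, fragment counts scaled to transcript length and library size, so levels may be compared between genes. The depth in reads is unknown.

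The labels of tissue and treatment were checked in the files. The summed level of 4 hippocampus markers was 51.4 to 71.8 FPKM in hippocampal and 2.54 to 5.96 FPKM in cortical libraries. *Cdkn1a*, the p53 target that encodes the cell cycle inhibitor p21, was at 12.7 to 16.8 FPKM in cortical IR against 5.67 to 6.32 FPKM in cortical Con, and at 6.06 to 6.25 FPKM in hippocampal IR against 2.00 to 2.27 FPKM in hippocampal Con. In other ways 3 libraries stand apart. Cortical IR library 2 lay nearer to Con than to the other IR libraries for *Csf1r*, although its *Cdkn1a* was 12.7 FPKM. Hippocampal Con library 3 was nearer to the IR libraries than to its own group over all genes tested (root mean square distance on the log2 scale 0.215 against 0.271 on average). Hippocampal Con library 1 held *S100a8*, a myeloid calcium-binding protein, at 382 FPKM, where the other 11 libraries had at most 0.917, while its usual partner *S100a9* was at 0.652 FPKM there. Calls that change without these libraries are given beside the results. Such calls move with the whole table: without hippocampal Con library 3, 2105 genes were lower and 1515 higher of 14043 at an unadjusted p under 0.05 in limma and 861 passed an adjusted p, against 967, 991 and 4 with all libraries.

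*Csf1r* lies on chromosome 18 from 61100598 to 61132149 on the plus strand of GRCm38 (GENCODE M21 annotation), with up to 22 exons in a transcript. Its last 873 bases overlap exons of *Hmgxb3* on the opposite strand, and whether the counting used strand is not given. *Hmgxb3* itself was at 11.44 to 12.52 FPKM in all 12 libraries. *Csf1* lies on chromosome 3 from 107741048 to 107760469 and *Il34* on chromosome 8 from 110741829 to 110805924, both on the minus strand. *Il34* shares 22 and 75 exonic bases with the antisense genes *Gm15894* and *Gm15895*, for which no value was used here.

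*Csf1r* was lower in all IR libraries than in all Con libraries of the same tissue. In the cortex it was at 21.1, 20.4 and 19.8 FPKM in Con libraries 1, 2 and 3, and at 8.84, 18.03 and 8.89 FPKM in IR libraries 1, 2 and 3. IR libraries 1 and 3 lay far below Con, whereas IR library 2 lay 1.75 FPKM under the lowest Con library. In the hippocampus the Con libraries had 22.3, 20.5 and 24.1 FPKM and the IR libraries 12.03, 11.71 and 12.23 FPKM. Here the 3 IR libraries lay close together and 8.26 FPKM or more below Con.

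The mean level of *Csf1r* in the cortex was 20.4 ± 0.661 FPKM for Con and 11.9 ± 5.29 FPKM for IR (SD, n = 3), a difference of -41.7%. The hippocampal means were 22.3 ± 1.83 FPKM and 11.99 ± 0.266 FPKM (SD, n = 3), a difference of -46.3%. The spread among cortical IR libraries was set by library 2, which was at 0.882 of the Con mean, where libraries 1 and 3 averaged 0.434 of it. On the log2(FPKM + 1) scale the fitted difference was -0.80 (SE 0.26) in the cortex and -0.84 (SE 0.07) in the hippocampus. It was -1.12 in the cortex without IR library 2, and -0.79 and -0.84 in the hippocampus without Con library 3 and Con library 1.

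**Figure D1:**
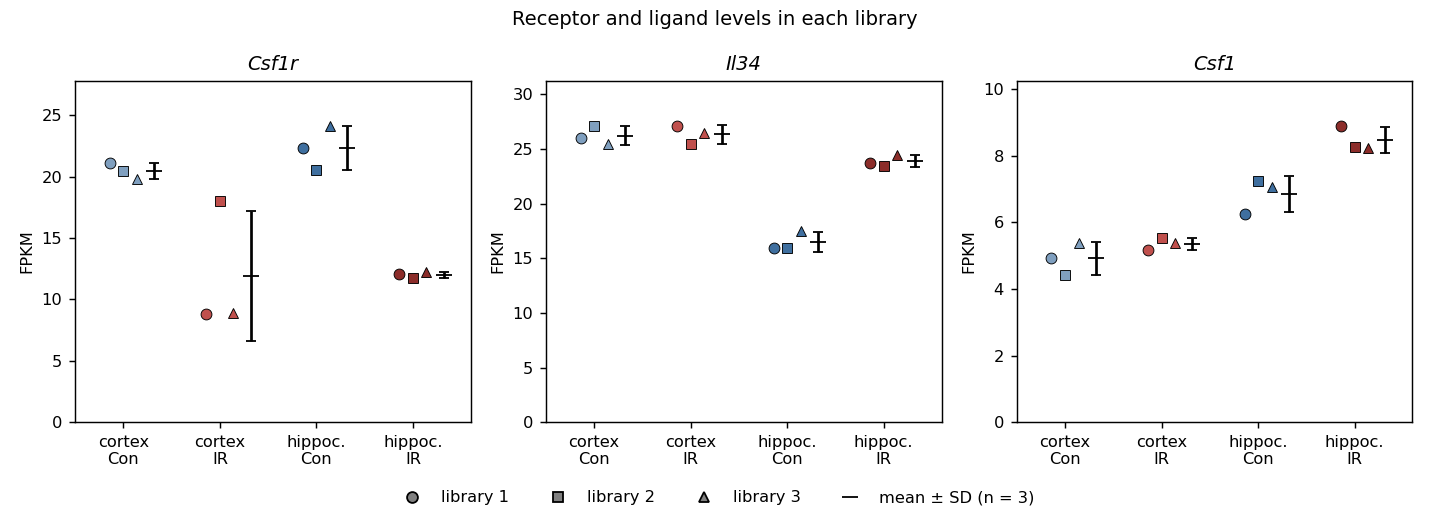
FPKM (vertical axes, from 0) of *Csf1r*, *Il34* and *Csf1* in the 12 libraries, with symbols for libraries 1 to 3 of each group and the mean ± SD beside them. *Csf1r* is lower in every IR library, with cortical IR library 2 at 18.03 FPKM near Con, and both ligands are higher in every hippocampal IR library but overlap with Con in the cortex.

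*Il34*, the ligand with the higher level, differed between IR and Con in the hippocampus and overlapped in the cortex. The hippocampal Con libraries had *Il34* at 16.0, 15.9 and 17.5 FPKM, and the hippocampal IR libraries at 23.8, 23.4 and 24.5 FPKM. All hippocampal IR libraries were at least 5.90 FPKM above the highest Con library. In the cortex *Il34* was at 26.0, 27.1 and 25.5 FPKM in Con and 27.1, 25.4 and 26.5 FPKM in IR, with both groups over the same range. The difference of the means was 45.0% in the hippocampus (fitted log2 difference 0.51, SE 0.06) and 0.518% in the cortex (0.01, SE 0.05).

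*Csf1* had the lowest level of the 3 genes in every library. In the hippocampus it was at 6.24, 7.23 and 7.07 FPKM in Con and 8.90, 8.26 and 8.21 FPKM in IR. The groups did not overlap, with a gap of 0.983 FPKM between them. In the cortex Con had 4.93, 4.42 and 5.39 FPKM and IR had 5.17, 5.52 and 5.37 FPKM, so the groups overlapped. The mean was 23.5% higher in hippocampal IR (log2 difference 0.27, SE 0.08) and 8.99% higher in cortical IR (0.11, SE 0.08). Without hippocampal Con library 3 the log2 differences of *Il34* and *Csf1* in the hippocampus were 0.55 and 0.29, and without Con library 1 they were 0.49 and 0.21.

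The receptor and both ligands therefore separated IR from Con in the hippocampus, and the receptor alone did so in the cortex. Among all genes tested, 9.36% had every hippocampal IR library below every Con library and 10.5% had every IR library above. In the cortex the same held for 9.09% (lower) and 11.2% (higher) of genes. Separation of 3 from 3 libraries is thus frequent in these data, and because the members were chosen on this contrast nothing further is read from it.

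The effect of IR was compared between tissues as hippocampus minus cortex on the log2 scale. For *Csf1r* the difference was -0.04 (SE 0.28), and 0.28 without cortical IR library 2, and 0.02 without hippocampal Con library 3, so its sign turned when either was left out. For *Il34* it was 0.50 (SE 0.08), and for *Csf1* 0.16 (SE 0.11). *Il34* thus had the clearest contrast between tissues, with the hippocampal IR level 23.9 ± 0.543 FPKM approaching the cortical means, 26.2 ± 0.848 FPKM (Con) and 26.4 ± 0.853 FPKM (IR; SD, n = 3).

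The comparison of the sham tissues was not used to select the genes and was tested with limma over all genes. *Il34* was lower in the hippocampus of Con mice than in their cortex, at 16.5 ± 0.907 against 26.2 ± 0.848 FPKM (SD, n = 3; log2 difference -0.64, SE 0.07, adjusted p = 0.000134). *Csf1* was higher in the hippocampus, at 6.85 ± 0.531 against 4.91 ± 0.484 FPKM (0.41, SE 0.10, adjusted p = 0.00885). *Csf1r* did not pass the test, with a log2 difference of 0.12 (SE 0.08, adjusted p = 0.279). The 2 ligands so differed between the sham tissues in opposite directions, in a comparison where 36.3% of all genes tested had an adjusted p under 0.05. These calls were kept when any 1 library was left out, with *Il34* between -0.68 and -0.62 and *Csf1* between 0.35 and 0.47.

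In IR mice, a comparison added after the values were seen, 46.7% of genes differed between the tissues by the same limma test. These IR libraries also entered the contrast on which the set was chosen, so the members are given as a description, with no p-value. *Csf1* was again higher in the hippocampus (log2 difference 0.57, SE 0.06, and 0.54 to 0.59 with any 1 library left out). The difference of *Il34* was -0.14 (SE 0.05), and -0.16 to -0.12 with any 1 library left out. *Csf1r* had a log2 difference of 0.08 (SE 0.26), or 0.40 without cortical IR library 2. The value columns of the cortex and hippocampus files carry different name endings, whose meaning is not given in the sources used here, and anything they mark cannot be told apart from tissue.

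Over the 4 groups, the order of mean levels was hippocampal Con, cortical Con, hippocampal IR and cortical IR for *Csf1r*. Only the step from cortical Con to hippocampal IR was free of overlap between neighbours. For *Il34* the order was cortical IR, cortical Con, hippocampal IR and hippocampal Con, and the first 2 overlapped. For *Csf1* it was hippocampal IR, hippocampal Con, cortical IR and cortical Con, and the last 2 overlapped.

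Receptor and ligand were next set against each other within each library. The ratios with *Csf1r* contain the values that chose the set, so they are a description only, with no test. The ratio of *Csf1r* to *Il34* was 0.811, 0.753 and 0.776 in cortical Con and 0.326, 0.709 and 0.336 in cortical IR. In the hippocampus it was 1.40, 1.29 and 1.38 in Con and 0.507, 0.4998 and 0.4996 in IR. The order of the 2 transcripts was therefore turned in the hippocampus: *Csf1r* exceeded *Il34* in 3 of 3 Con libraries and in 0 of 3 IR libraries. In the cortex *Csf1r* was below *Il34* in all 6 libraries. The ratio in hippocampal IR, 0.502 ± 0.00405 (SD, n = 3), varied little, as receptor and ligand were both similar in the 3 libraries.

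*Csf1r* exceeded *Csf1* in all 12 libraries. The ratio of *Csf1r* to *Csf1* averaged 4.19 ± 0.484 in cortical Con and 3.28 ± 0.390 in hippocampal Con (SD, n = 3). It was 1.71, 3.26 and 1.65 in the cortical IR libraries and 1.42 ± 0.0686 in hippocampal IR. All IR libraries were below all Con libraries of their tissue. As this ratio contains the *Csf1r* values that chose the set, nothing further is read from that.

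Both ligand transcripts together reached 31.1 ± 0.381 FPKM in cortical Con and 31.7 ± 0.681 FPKM in cortical IR, which overlapped. The hippocampal sums were 23.3 ± 1.20 FPKM for Con and 32.3 ± 0.572 FPKM for IR (SD, n = 3). The summed ligand level of the irradiated hippocampus was thus close to that of the cortex. *Il34* made up 84.2% ± 1.73 of the sum in cortical Con, 83.1% ± 0.919 in cortical IR, 70.6% ± 1.63 in hippocampal Con and 73.9% ± 1.07 in hippocampal IR. Ligand transcript per receptor transcript was 1.52 ± 0.0503 in cortical Con, 2.98 ± 1.10 in cortical IR, 1.05 ± 0.0727 in hippocampal Con and 2.70 ± 0.0215 in hippocampal IR. These ratios of transcript levels say nothing of the amounts of protein.

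**Figure D2:**
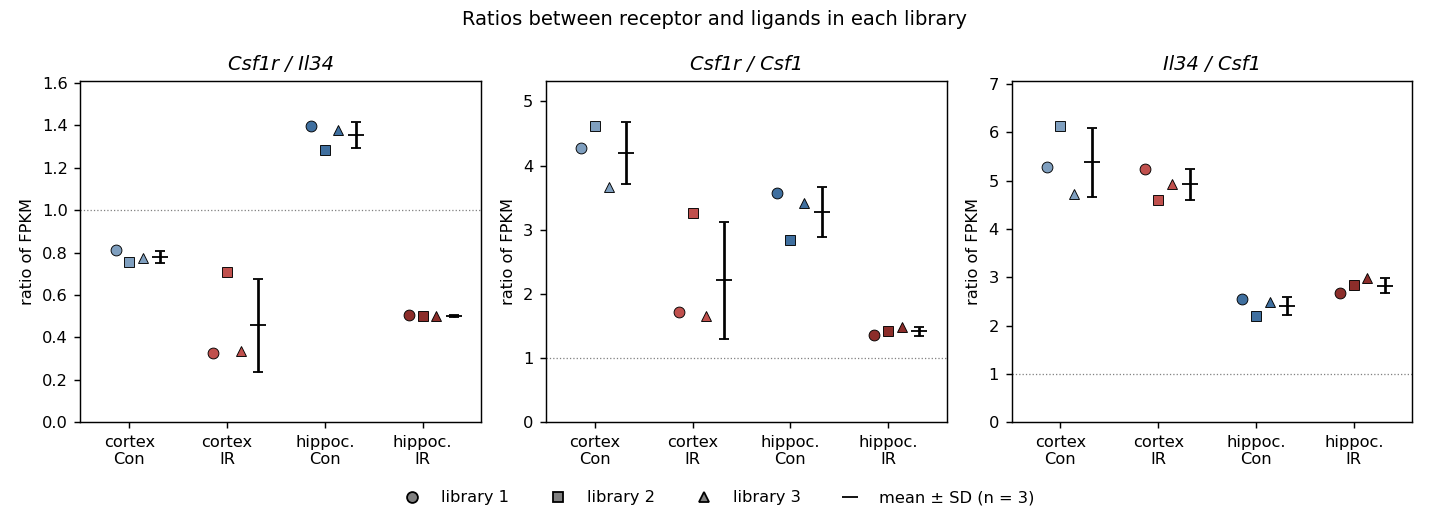
Ratios of FPKM (vertical axes, from 0) of *Csf1r* to *Il34*, *Csf1r* to *Csf1* and *Il34* to *Csf1* in each library, with the mean ± SD of each group and a dotted line at 1. *Csf1r* to *Il34* lies above 1 in the 3 hippocampal Con libraries (1.29 to 1.40) and below 1 in the other 9 libraries.

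Because microglia are the main source of *Csf1r* in brain tissue, a list of 18 microglia markers was examined beside it. In bulk tissue, fewer cells of a type and less RNA per cell cannot be told apart. In the hippocampus 14 of the 18 markers were lower in IR, with a median log2 difference of -0.26 against -0.01 over all genes tested. Over all genes, 7407 of 14043 were lower. Of the 14 markers, 10 had an unadjusted p under 0.05 in limma, where 6.89% of all genes were lower at that level, and 0 had an adjusted p under 0.05, which 0.0285% of all genes reached. They include *P2ry12* and *P2ry13*, purinergic receptors of microglia (-0.32, SE 0.09, and -0.33, SE 0.09), *Cx3cr1*, the fractalkine receptor (-0.41, SE 0.10), and *Ctss*, the lysosomal protease cathepsin S (-0.51, SE 0.12). *Fcrls*, a microglial Fc receptor-like gene, was higher (0.30, SE 0.12), as were 7.06% of all genes at this level. The number of lower markers at an unadjusted p under 0.05 was 7 without hippocampal Con library 1, when 590 of 14043 genes were lower at that level, 13 of the 18 markers were lower with a median of -0.19 and *Fcrls* did not pass, and 10 without Con library 3, when 2105 genes were and 15 of the 18 markers were lower with a median of -0.29. Without Con library 3, 2 of the lower markers, *Ctss* among them, also had an adjusted p under 0.05, as did 861 of all genes. *Laptm5*, a lysosomal membrane protein gene, was then higher beside *Fcrls* at the unadjusted level, as were 1515 of all genes.

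In the cortex 16 of the 18 markers were lower in IR, with a median log2 difference of -0.17 against 0.00 over all genes tested. Over all genes, 6963 of 14065 were lower. Of the 16 markers, 6 had an unadjusted p under 0.05 in limma, beside 5.94% of all genes, and 0 an adjusted p under 0.05, which 0.725% of all genes reached. They include *Gpr34*, a lysophospholipid receptor (-0.43, SE 0.13), *Siglech*, a microglial lectin (-0.40, SE 0.14), *Cx3cr1* (-0.36, SE 0.09), *P2ry13* (-0.35, SE 0.10) and the complement gene *C1qc* (-0.16, SE 0.06). Without IR library 2 there were 17 lower markers, 9 of them at an unadjusted p under 0.05, when 745 of 14065 genes were lower at that level. There were also 9 without Con library 3, when 827 genes were lower at that level, and 4 without IR library 1 (517 genes) or without IR library 3 (754 genes). *Tmem119* (-0.11, SE 0.12) and *Aif1*, which encodes Iba1 (-0.21, SE 0.14), did not pass even the unadjusted threshold in the cortex with all libraries, and *Aif1* passed it without IR library 2. In the hippocampus with all libraries *Tmem119* passed the unadjusted threshold and *Aif1* did not.

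None of the 18 markers had as low a log2 difference as *Csf1r* in either tissue: the lowest was *Gpr34* at -0.43 in the cortex and *Ctss* at -0.51 in the hippocampus. The geometric mean of the markers was 10.9 ± 0.502 FPKM in cortical Con and 10.9 ± 0.812 FPKM in hippocampal Con (SD, n = 3). It was 8.74, 10.7 and 8.96 FPKM in cortical IR libraries 1, 2 and 3, and 9.31 ± 0.571 FPKM in hippocampal IR. Cortical IR library 2 was within the Con range for the marker mean, although it was below that range for *Csf1r*. *Csf1r* relative to this mean was 1.87 ± 0.0389 in cortical Con and 1.01, 1.68 and 0.991 in cortical IR, and 2.05 ± 0.163 in hippocampal Con and 1.29 ± 0.0926 in hippocampal IR. All IR libraries were below all Con libraries of their tissue in this ratio, which contains the *Csf1r* values that chose the set and is a description only.

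**Figure D3:**
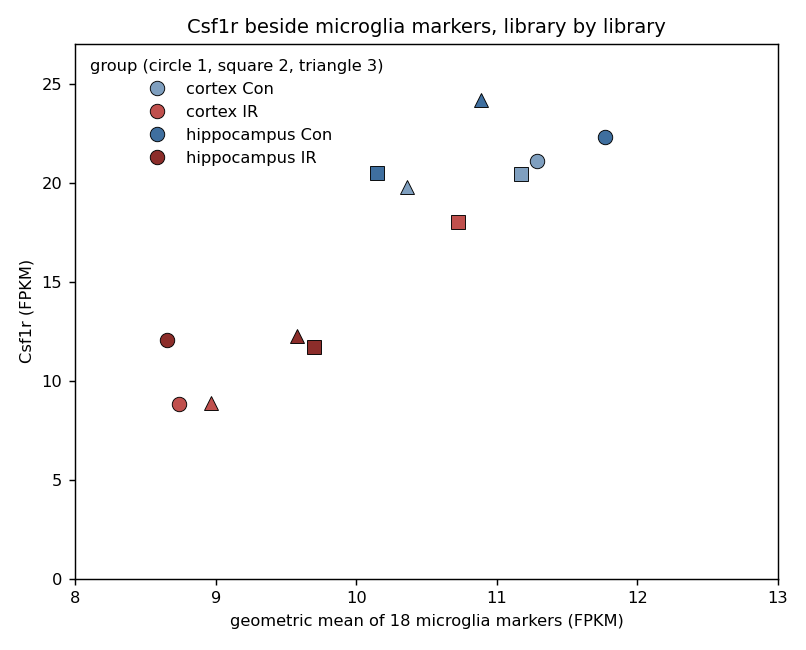
*Csf1r* (vertical axis, FPKM, from 0) against the geometric mean of 18 microglia markers (horizontal axis, FPKM, from 8) in the 12 libraries, coloured by group with symbols for the library number. The 3 hippocampal IR libraries and cortical IR libraries 1 and 3 lie at 8.66 to 9.70 FPKM on the marker axis and 8.84 to 12.2 FPKM for *Csf1r*, and cortical IR library 2 lies nearer to the Con libraries.

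The 5 genes whose levels were most like *Csf1r* over the 12 libraries, after the mean of each tissue was removed, include *Siglech* (Pearson r = 0.97), *2410002F23Rik* (0.92), *Slc52a2*, a riboflavin transporter (0.91), and *Tmem63b*, an ion channel (0.91), out of 12846 genes. These correlations contain the difference between IR and Con and describe these libraries only. *Siglech* was at 2.78, 4.24 and 2.45 FPKM in cortical IR libraries 1, 2 and 3 against 4.31 to 4.53 FPKM in Con. As for *Csf1r*, cortical IR library 2 was the nearest to Con and below the lowest Con library. *Fcrls* and *Olfml3* had the lowest r of the microglia markers with *Csf1r* (-0.27 and -0.22).

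The genes most like *Csf1* were *Prox1*, a transcription factor of dentate granule cells (r = 0.96), *Ccdc159* (0.95) and *Lhfpl2* (0.94). In the hippocampus *Prox1* was at 14.4, 16.6 and 16.7 FPKM in Con and 21.1, 18.8 and 19.6 FPKM in IR (log2 difference 0.30, SE 0.08). The summed hippocampus markers, of which *Prox1* is 1, were at 51.4 to 59.1 FPKM in hippocampal Con and 62.4 to 71.8 FPKM in hippocampal IR. In the fit 4 of 4 were higher, where 7407 of 14043 genes were lower. *Prox1* and *Lct* had an unadjusted p under 0.05 in limma, beside 7.06% of all genes higher, and 0 of the 4 an adjusted one. *Spink8* and *Dsp* overlapped between Con and IR. The summed marker level moved with the ligand levels of the hippocampus, and its part in them was not tested. For *Il34* the nearest genes were *Opa3*, a mitochondrial protein gene (0.96), *Tef*, a circadian output transcription factor (0.95), and *Ehd1*, an endocytic recycling gene (0.94). Within the cortex alone *Tef* and *Ehd1* had r of -0.02 and -0.38 with *Il34*, so their likeness rests on the hippocampus. *Csf1r* had r of -0.63 with *Csf1* (-0.90 in the hippocampus and -0.35 in the cortex, 6 libraries each). With *Il34* it had -0.65 (-0.95 in the hippocampus and -0.47 in the cortex). The 2 ligands had 0.72 with each other (0.90 in the hippocampus and -0.65 in the cortex).

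**Figure D4:**
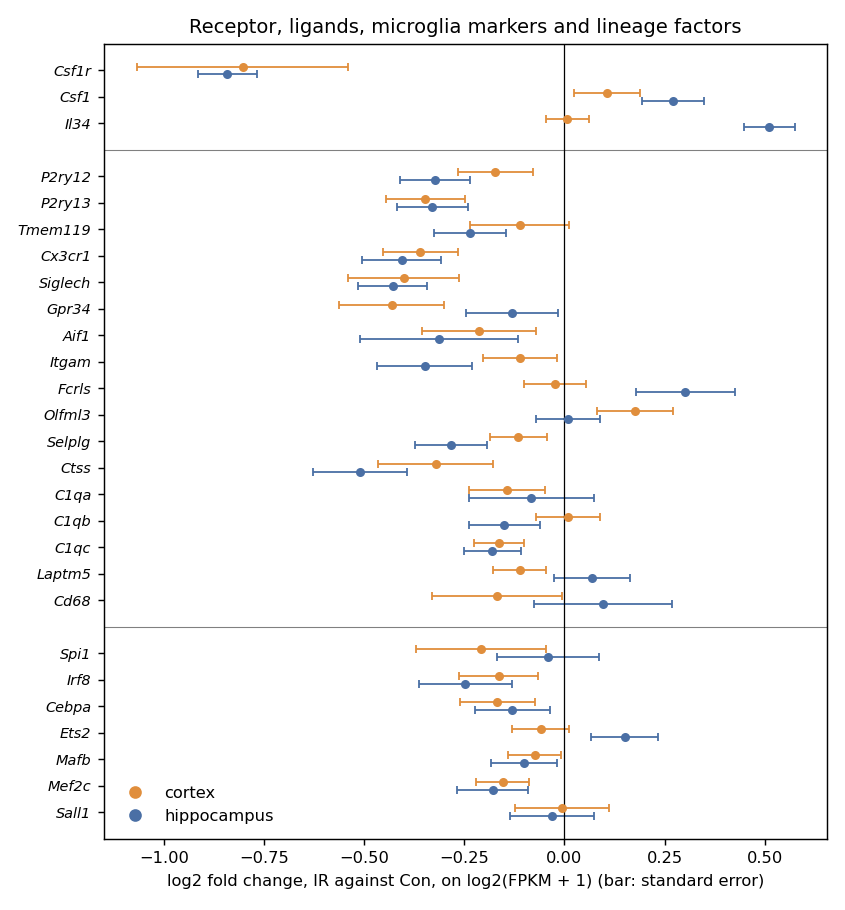
Log2 difference of IR against Con on log2(FPKM + 1) (horizontal axis, bar for the standard error) in cortex and hippocampus for *Csf1r*, *Csf1* and *Il34*, 17 of the 18 microglia markers and the 7 tested factors of the microglial lineage. *Csf1r* lies lowest in both tissues (-0.80 and -0.84), and the markers range from -0.43 to 0.18 in the cortex and from -0.51 to 0.30 in the hippocampus.

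Transcription factors of the microglial lineage, among them the regulators of *Csf1r* transcription PU.1 (*Spi1*) and C/EBP alpha (*Cebpa*), were lower for 7 of 7 tested genes in the cortex and 6 of 7 in the hippocampus, with medians of -0.15 and -0.10. Over all genes tested, 6963 of 14065 were lower in the cortex and 7407 of 14043 in the hippocampus, with medians of 0.00 and -0.01. *Mef2c*, which neurons also express at a high level, was the only 1 at an unadjusted p under 0.05 in limma (cortex, -0.15, SE 0.07), beside 5.94% of cortical and 6.89% of hippocampal genes lower at that level, and 0 had an adjusted p under 0.05. Without cortical IR library 2 none passed in the cortex. In the hippocampus *Mef2c* was lower at the unadjusted level without Con library 1, as were 590 of 14043 genes. Without Con library 3 *Irf8* was lower and *Ets2* higher, beside 2105 genes lower and 1515 higher, and 5 of 7 factors were lower. *Spi1* itself had log2 differences of -0.21 (SE 0.16) and -0.04 (SE 0.13). *Irf8*, an interferon regulatory factor needed in microglia, had -0.16 (SE 0.10) and -0.25 (SE 0.12).

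Proximal signalling downstream of the receptor was covered by 19 genes, most of which other cells use too. In the cortex 12 of 18 tested were lower (median -0.03), where 6963 of 14065 genes were (median 0.00). Of the 18, 0 had an unadjusted or adjusted p under 0.05 in limma. Without IR library 2 *Gab2* and *Inpp5d* were lower at the unadjusted level, beside 745 of 14065 genes. In the hippocampus 12 of 19 were lower (median -0.04), where 7407 of 14043 genes were (median -0.01). Of the 19, 0 had an adjusted p under 0.05 in limma, and 2 were lower at an unadjusted p under 0.05, beside 6.89% of all genes. These were *Vav1*, a guanine nucleotide exchange factor of blood and microglial cells (-0.31, SE 0.10), and *Fyn*, a Src family kinase abundant in neurons and oligodendrocytes (-0.22, SE 0.09). *Fyn* was at 57.6, 56.7 and 47.0 FPKM in hippocampal Con and 43.3, 45.7 and 48.8 FPKM in IR, so the groups overlapped through Con library 3. *Vav1* alone passed without Con library 1, beside 590 of 14043 genes lower at that level, when 9 of 19 genes were lower. Without Con library 3, 13 of 19 were lower, *Grb2* also passed as lower and *Cbl* as higher at the unadjusted level, beside 2105 and 1515 of all genes, and *Fyn* had an adjusted p under 0.05, beside 861. *Tyrobp*, the DAP12 adaptor that couples to CSF1R signalling, had log2 differences of 0.02 (SE 0.11) in the cortex and -0.07 (SE 0.10) in the hippocampus.

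*Ptprz1*, a receptor phosphatase of astrocytes and progenitors that also binds IL-34, had log2 differences of 0.08 (SE 0.07) and -0.05 (SE 0.08), and *Sdc1*, the other such partner, was too low to be tested. Among 13 receptors and ligands related to CSF1R, 10 were tested. *Flt3*, a receptor tyrosine kinase of the same class, and its ligand gene *Flt3l* were higher in the hippocampus at an unadjusted p under 0.05 (0.29, SE 0.09, and 0.33, SE 0.12), and *Pdgfb* was higher in the cortex (0.19, SE 0.07), beside 8.16% of cortical and 7.06% of hippocampal genes higher at that level. Without cortical IR library 2 *Pdgfb* did not pass and *Pdgfra* was lower, beside 745 of 14065 genes. Without hippocampal Con library 1 *Flt3l* did not pass, and without Con library 3 *Kit* was also higher, beside 1515 of 14043 genes. None of the 10 had an adjusted p under 0.05 in limma in either tissue, with or without these libraries. *Pdgfrb*, the neighbour of *Csf1r* on the same strand, was at 4.67 to 5.77 FPKM in all 12 libraries, with log2 differences of -0.06 (SE 0.09) and 0.03 (SE 0.07).

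**Figure D5:**
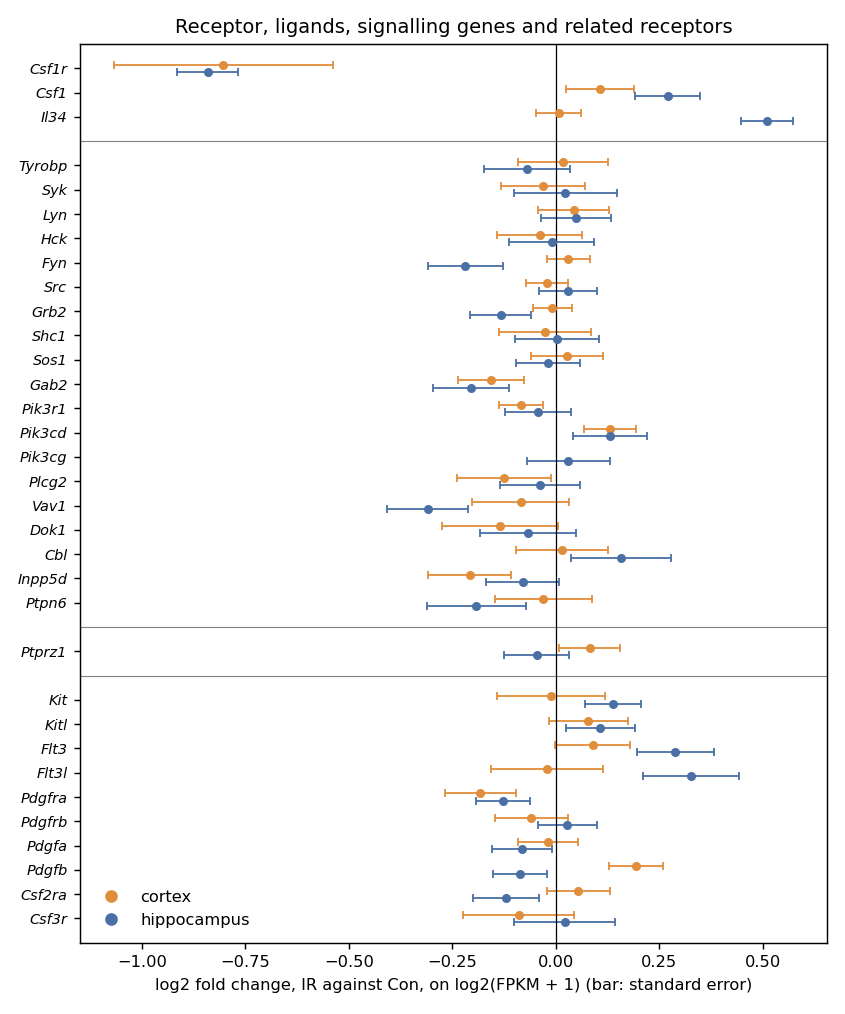
Log2 difference of IR against Con on log2(FPKM + 1) (horizontal axis, bar for the standard error) in cortex and hippocampus for *Csf1r* and its ligands, the tested signalling genes, *Ptprz1* and the tested related receptors and ligands. The signalling genes spread around 0, with *Vav1* at -0.31 and *Fyn* at -0.22 in the hippocampus.

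Markers of other cell types were read beside these values. Perivascular macrophages, which also carry CSF1R, were represented by *Mrc1* and *Pf4*, while *Cd163* and *Lyve1* were too low to be tested. *Mrc1* was lower in cortical IR (-0.22, SE 0.10) and higher in hippocampal IR (0.57, SE 0.16) at an unadjusted p under 0.05 in limma. At that level 5.94% of cortical genes were lower and 7.06% of hippocampal genes higher. Hippocampal Con had *Mrc1* at 0.309, 0.173 and 0.603 FPKM, so it met the 0.5 FPKM filter through IR and this call is not read further. The means of *Cd163* and *Lyve1* were lower in hippocampal IR, and that of *Pf4* higher. The *Mrc1* difference between the tissues did not pass the adjusted threshold (interaction 0.79, adjusted p = 0.201). *Mrc1* did not pass in the cortex without IR library 2. *Pf4* was also higher in the hippocampus without Con library 3, beside 1515 of 14043 genes. The 4 perivascular markers summed to 0.771 to 3.56 FPKM in the hippocampus and 1.13 to 2.44 FPKM in the cortex, against 216 to 301 FPKM for the microglia markers. The 4 T cell markers summed to at most 0.808 FPKM in any library. Of the 5 neuron markers, 0 passed an unadjusted p under 0.05 in either tissue and 0 an adjusted one in limma. Without Con library 3 *Rbfox3* was lower in the hippocampus, beside 2105 of 14043 genes. In the cortex 3 of 5 oligodendrocyte markers were higher, and in the hippocampus 2 of 5 were lower, at an unadjusted p under 0.05, beside 8.16% and 6.89% of all genes. Without cortical IR library 2 only *Mobp* passed and 2 of 5 had a negative difference, and without hippocampal Con library 1 only *Mog* passed. Without hippocampal Con library 3 *Mobp* was also higher, beside 1515 of 14043 genes. At that level 2 of 4 endothelial markers were higher in each tissue, *Cldn5* in both (cortex 0.46, SE 0.11, and hippocampus 0.45, SE 0.09), beside 8.16% and 7.06% of all genes, and *Cldn5* alone passed without cortical IR library 2. Astrocyte *Gjb6* was higher in both tissues at that level, beside 8.16% of cortical and 7.06% of hippocampal genes. *Aldh1l1* and *Slc1a3* were lower in the hippocampus, beside 6.89% of hippocampal genes. So 3 of 6 astrocyte markers passed there, 1 higher and 2 lower, and *Gjb6* alone passed without hippocampal Con library 1. With all libraries, none of these markers of other cell types had an adjusted p under 0.05 in limma in either tissue. Without hippocampal Con library 3 *Cldn5* did in the hippocampus, as did 861 of 14043 genes. The part of these cell types in the levels of *Csf1r*, *Csf1* and *Il34* was not tested.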

How the data were processed

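The values are FPKM that the authors computed and deposited as 1 file for each of the 12 libraries, each listing 23183 gene symbols. Per the study's methods and the submitters' processing notes, the authors trimmed reads with FASTX_Trimmer and BBMap, aligned them to mm10 with TopHat, quantified them with Cufflinks and applied a geometric normalization in edgeR. Tool versions and annotation are not given in the sources used here. FPKM are not counts, so no count test was run. The depth in reads is unknown, no counting interval is given, and the FPKM summed to 359773 to 393447 per library. No pair of libraries was identical.

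Groups came from the labels. A gene entered a fit if 3 or more of the 6 libraries reached 0.5 FPKM (14065 in cortex, 14043 in hippocampus). The fits used log2(FPKM + 1) with limma 3.58.1 in R 4.3.3 (trend, robust prior), per comparison, with Benjamini-Hochberg adjustment over all genes. This scale understates changes of low genes. The steps were tested on simulated data. The members and gene lists were chosen with earlier results of these data known. Named genes are the members, the lists, and the genes with the highest Pearson r to a member among those with a mean of at least 1 FPKM. *Cdkn1a* and the neighbours of the members were added for checks. A gene of the microglia list, counted with that list, is not reported here by name. Alternatives were another pseudocount (0.1), filters, quantile normalization, plain limma, a replicate block, a single fit over all libraries, and leaving out each library. Gene positions came from GENCODE M21 (GRCm38). Figures used matplotlib 3.10.9.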

Additional observations from a re-analysis of the deposited data

How the results depend on the processing

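The number of genes with an adjusted p under 0.05 depended on the setting. In the cortex it was 102, against 22 with neither trend nor robust prior in limma, 24 with no filter on low values, and 17 to 77 with 1 library left out. In the hippocampus it was 4, against 2 with at least 1 FPKM required in every library, 1 with the replicate block, 74 in a single fit over all 12 libraries, and 2 to 861 with 1 library left out, the highest without Con library 3. For the interaction it was 12, against 19 with at least 1 FPKM in every library, 0 with neither trend nor robust prior (where 768 genes with a negative and 710 with a positive interaction had an unadjusted p under 0.05), 7 with no filter, 19 with the replicate block, and 0 to 487 with 1 library left out, the highest again without hippocampal Con library 3. In the sham tissues, leaving out 1 library gave 3743 to 5632. Signalling genes lower at an unadjusted p under 0.05 numbered 0 in the cortex, against 1 with neither trend nor robust prior, 1 in the single fit, and 0 to 2 with 1 library left out. In the hippocampus they numbered 2, against 1 with no filter, with the stricter filter, with neither trend nor robust prior and with the replicate block, 4 in the single fit, and 1 to 3 with 1 library left out. The cause was not tested. With 1 library left out, the log2 differences ranged from -1.12 to -0.64 for *Csf1r*, 0.05 to 0.16 for *Csf1* and -0.01 to 0.03 for *Il34* in the cortex, and from -0.90 to -0.79, 0.21 to 0.31 and 0.49 to 0.55 in the hippocampus. *Il34* in the cortex also changed sign with quantile normalization (-0.01), and no other of these 6 values did so under any setting. The interaction of *Csf1r* ranged from -0.20 to 0.28. In IR libraries the difference of *Csf1r* between tissues was -0.0786 without cortical IR library 1 and -0.0753 without library 3, against 0.08 with all, and 0.3968 without library 2. That of *Il34* ranged from -0.16 to -0.12 with 1 library left out. The numbers were not taken to pair the libraries, as deviations of same-numbered IR and Con libraries had r of -0.11 to 0.11 in the cortex and -0.39 to -0.09 in the hippocampus, and those of same-numbered cortical and hippocampal libraries -0.04 to 0.20 in Con and -0.08 to 0.14 in IR. Unknown depth, 3 libraries per group and the libraries that stand apart limit these values.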
